A study of Danio rerio with 6 samples.

Results

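The globin genes of the zebrafish, which encode the protein chains of haemoglobin, were described in cd41-positive cells of ddx41 mutant and wildtype embryos. Of 10 genes chosen by name, 8 matched a row among the 32105 genes counted. The rows of hbae1.1, hbae1.3, hbae3, hbae5 and hbbe3 were found by symbol, and those of ENSDARG00000097238, ENSDARG00000089087 and ENSDARG00000079078 by Ensembl identifier. The names hbbe1.1 and hbbe2 met no identifier in the table of gene names, and no value is given under them. The 8 rows lie in 2 clusters that hold 17 rows in all, and the other 9 rows were described beside them.

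The mutant libraries came from embryos labelled ddx41 mutant, and the others from embryos labelled wildtype, which the series text calls siblings, all at 40 hours after fertilization. The labels name no allele, and they do not say how many embryos were pooled or whether the 3 libraries of a genotype came from separate clutches, so the spread behind each p-value is that between libraries, which may be technical. Cells were sorted as cd41-positive, and the library names refer to a cd41 GFP reporter. The cd41 protein is an integrin chain encoded by itga2b, and its reporter is known to label blood progenitors, stem cells among them, as well as thrombocytes, which do the work of platelets in fish. The level of ddx41 was not analysed here.

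Haemoglobin joins alpha-type and beta-type globin chains, each holding a haem group, and makes up most of the protein of red blood cells. Zebrafish keep their globin genes in a large cluster on chromosome 3, where alpha and beta genes lie side by side, and a small one on chromosome 12. Genes with an e in the symbol (hbae, hbbe) are named as embryonic and those with an a (hbaa, hbba) as adult. Erythroid transcription factors such as Gata1 and Klf1 switch globin genes on as red cells mature.

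The chromosome 3 cluster held 13 of the rows and the chromosome 12 cluster 4, the same numbers of globin genes as RefSeq lists on these chromosomes in its GRCz12tu assembly. By name, 9 rows are of the alpha type and 6 of the beta type. The beta type includes 5 that carry only HBE1, the symbol of a human embryonic beta-type globin, as an orthologue name: ENSDARG00000069734, ENSDARG00000097238, ENSDARG00000089087 and ENSDARG00000087390 on chromosome 3, and ENSDARG00000045143 on chromosome 12. ENSDARG00000079078 has the symbol si:ch211-5k11.8 and was counted as alpha, since RefSeq gives it the synonym hbaa1.2. ENSDARG00000089963 and ENSDARG00000090689 have no symbol and were kept out of the chain sums. On GRCz10, the build of the count table, hbbe3 spans chromosome 12 from 20217539 to 20218669 on the minus strand, and hbae5 20220577 to 20231667 on the plus strand. On chromosome 3 the HBE1 gene ENSDARG00000097238 spans 54843855 to 54844670 and ENSDARG00000089087 spans 54843971 to 54849708, both on the minus strand. Beside them si:ch211-5k11.8 spans 54850464 to 54851364 on the plus strand. Farther along, hbae1.1 spans 54865728 to 54884490, hbae1.3 spans 54883811 to 54884525 and hbae3 spans 54891985 to 54893256, all on the minus strand. The first 6 rows of chromosome 3 are called the hbaa stretch here, and the remaining 7 the hbae stretch.

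Several of these gene models share exon bases, and the authors' counting did not keep a fragment that met more than 1 gene. Shared bases made up 39.8% of the exons of hbae1.1, 35.6% of si:ch211-5k11.8, 20.9% of ENSDARG00000097238, 17.1% of hbae1.3, 13.3% of ENSDARG00000089087 and 8.16% of hbae5. The exons of hbae3 and hbbe3 met no other gene. Counting also did not use strand, and hbae5 overlaps ENSDARG00000045143 on the opposite strand over 103 exon bases. Globin copies are known to be alike in sequence, so the split of counts among neighbouring rows is uncertain, and the sums by chain and by cluster lack the fragments that were not kept.

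**Figure D1:**
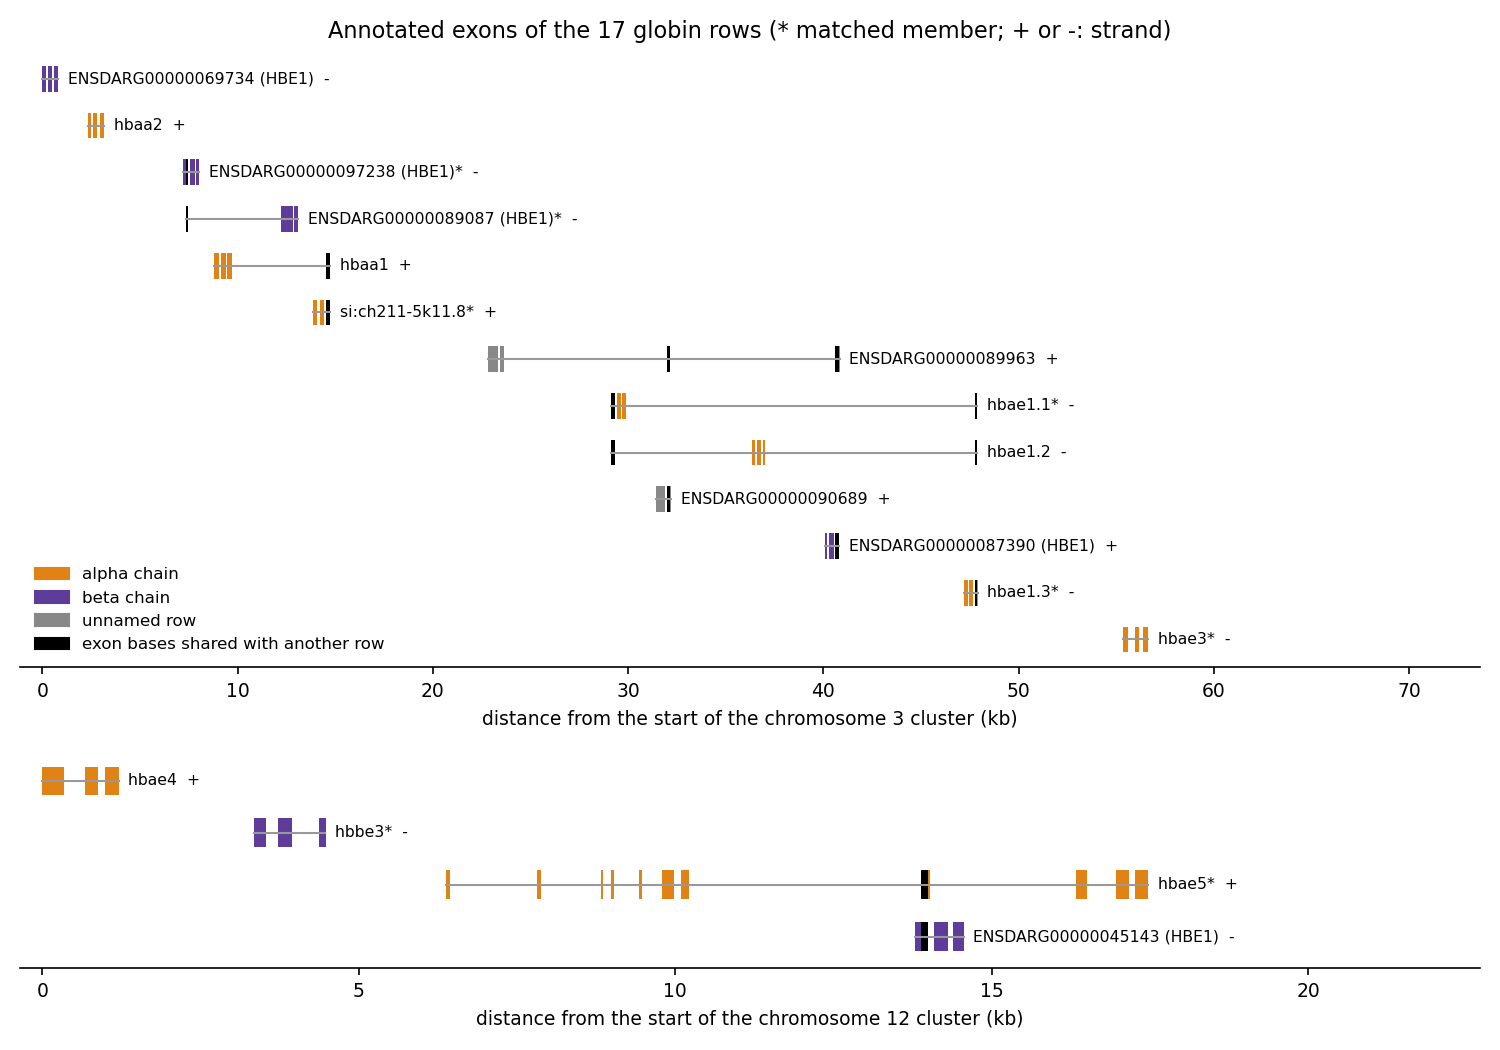
Annotated exons (boxes) of the 17 globin rows by distance in kb from the start of each cluster, coloured by chain, with exon bases shared by several rows in black and the strand after each name. An asterisk marks the 8 matched members; 13 rows lie on chromosome 3 and 4 on chromosome 12, and the exons of hbae3 and hbbe3 are free of shared bases.

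Counts on genes totalled 14577735, 15912260 and 15298568 in mutant replicates 1 to 3, and 17639699, 17001423 and 17175260 in wildtype replicates 1 to 3. Mitochondrial genes took 26.5% to 30.7% of mutant counts and 21.3% to 27.6% of wildtype counts. Transcripts of the sorted marker were sparse: itga2b held 33 to 101 counts in the mutant libraries and 19 to 61 in the wildtype libraries. The neutrophil lysozyme gene lyz averaged 8298 ± 1842 CPM, the count of a gene relative to the TMM-scaled size of its library, in mutants, against 20456 ± 6934 CPM in wildtypes (SD, n = 3 each), and the stem cell gene RUNX1 averaged 1.68 CPM in mutants and 2.60 CPM in wildtypes. Genes of the hatching gland, an embryonic tissue outside the blood, summed to 18726, 631 and 822 CPM in mutant replicates 1 to 3 and to 9499, 1115 and 3684 CPM in wildtype replicates 1 to 3, so replicate 1 was the highest in both genotypes. Transcripts of a tissue outside the blood were thus present in each library.

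Globin transcripts were present in both genotypes and at very different levels among genes. Per kilobase of annotated exon, hbbe3 led in the mutants with 20542 ± 9830 CPM per kb, followed by hbae3 with 10039 ± 5303 CPM per kb (SD, n = 3). The next levels were 4463 ± 2134 CPM per kb for the HBE1 gene ENSDARG00000087390, 3945 ± 2225 for ENSDARG00000089963 and 3929 ± 2282 for hbae1.3. In wildtypes hbae3 led with 1468 ± 1100 CPM per kb, then hbbe3 with 1426 ± 1131 and hbae1.3 with 911 ± 632 (SD, n = 3). Lower in both orders came hbae1.1, at 440.0 CPM per kb in mutants and 54.2 CPM per kb in wildtypes, and hbae5, at 88.9 and 2.99 CPM per kb in mutants and wildtypes. The members at the adult end of the cluster were lowest, with si:ch211-5k11.8 at 38.9 CPM per kb in mutants and 0.226 in wildtypes, ENSDARG00000097238 at 18.7 in mutants and 0.113 in wildtypes, and ENSDARG00000089087 at 11.9 in mutants and 0.106 in wildtypes.

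The ranges over libraries of neighbours in this order of levels per kb overlapped in each genotype, except between ENSDARG00000089087 and ENSDARG00000069734 in mutants. Read within each library, 11 of the 16 neighbouring pairs kept their order in 3 of 3 mutants, and 10 of 16 did in 3 of 3 wildtypes. At the top, hbbe3 stood above hbae3 in 3 of 3 mutants, and hbae3 above hbbe3 in 2 of 3 wildtypes. With only the exon bases that no other gene shares as the divisor, the ranks in mutants were the same, and in wildtypes ENSDARG00000087390 and hbae1.3 exchanged the places 3 and 4.

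**Figure D2:**
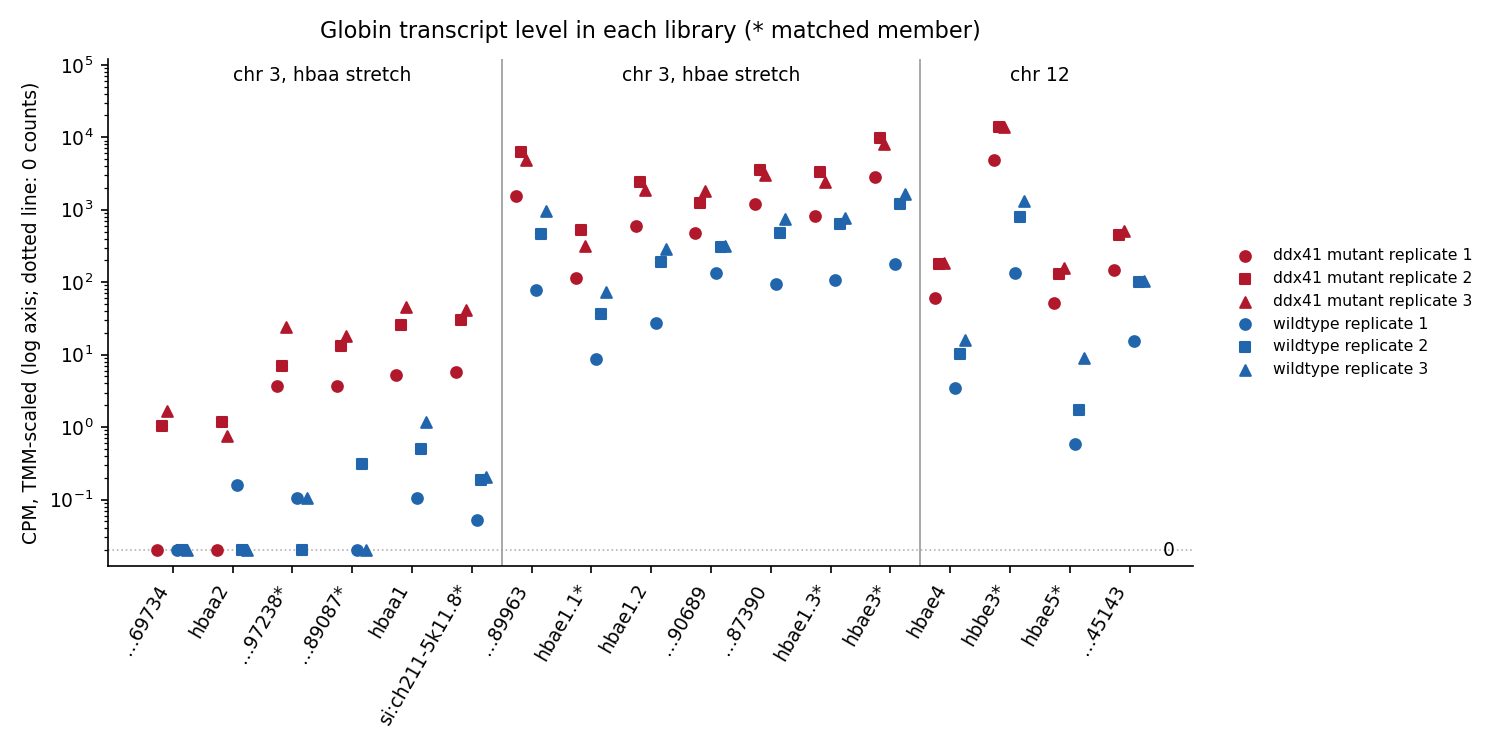
TMM-scaled CPM (log axis, 0 counts on the dotted line) of the 17 globin rows in each mutant library (red) and wildtype library (blue), in chromosomal order with members marked by an asterisk; an identifier after … lacks its start, ENSDARG000000. The mutant points lie above the wildtype points in 15 of the 17 rows, and the mean level of each row of the hbaa stretch lies below that of every other row in both genotypes.

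To determine which globin genes differ between ddx41 mutant and wildtype cells, each row was tested among all genes with enough counts. All 8 members had a higher level in mutants, and 5 of the 8 rose past the threshold (edgeR quasi-likelihood test, adjusted p below 0.05): hbbe3, hbae5, si:ch211-5k11.8, ENSDARG00000097238 and ENSDARG00000089087. None fell, and 3 of the 8, hbae1.1, hbae1.3 and hbae3, did not pass. Of the 5 that rose, si:ch211-5k11.8, ENSDARG00000097238 and ENSDARG00000089087 had too few counts in wildtypes and entered the test through the mutant libraries alone, so a member of this kind had to differ and the count of 5 carries no weight of its own. Of the other 5 members, which had enough counts in every library, 2 rose, and the log2 differences of these 5 were 2.11 to 4.89. Among them hbae5, which rose, held 11 counts in wildtype replicate 1, close to the minimum count of 10. Over all 18722 genes tested, 625 were higher, or 3.34%, and 373 were lower, or 1.99%. The median log2 fold change over all tested genes was 0.02. Each of the 8 had an unadjusted p below 0.05, as had 4268 of all tested genes. Over the 17 rows, 15 were tested, and 4 of these entered through the mutants alone. Of the remaining 11, 5 rose and none fell. In bulk samples fewer cells of a type and less RNA per cell cannot be told apart, and this holds for each difference given here.

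The number that passed, with the 3 low-count members in it, rested on single libraries. When mutant replicate 1 was left out, 8 of the 8 members passed, beside 5.68% of all genes tested. Leaving out mutant replicate 2 left 2 (0.735% of all genes) and leaving out mutant replicate 3 left 1 (0.522%). Among the wildtypes, 5 passed when replicate 1 was left out (2.17% of all genes) and 3 when replicate 3 was (1.1%). When wildtype replicate 2 was left out, none passed in edgeR (adjusted p = 0.0596 to 0.245; 0.256% of all genes), with all 8 at an unadjusted p below 0.05. On all 6 libraries, DESeq2 called 8 of the 8 members higher, beside 6.93% of all genes, and limma voom with sample weights also 8, beside 7.8%. With the replicate number as a block, edgeR called 8 as well, beside 4.9%.

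In CPM, every mutant library was above every wildtype library for 8 of the 8 members and for 15 of the 17 rows, as for 15.3% of all tested genes. The 15 rows were those tested. Among them 3 members and 4 rows entered the test through the mutants alone, so that they stood apart carries no weight of its own. The other 5 members and 11 rows stood apart as well. Divided by plain library totals instead, hbae1.3 overlapped, since mutant replicate 1 held 706 and wildtype replicate 3 held 872 CPM on that scale, and 7 members stood apart, as did 10.6% of all tested genes.

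**Figure D3:**
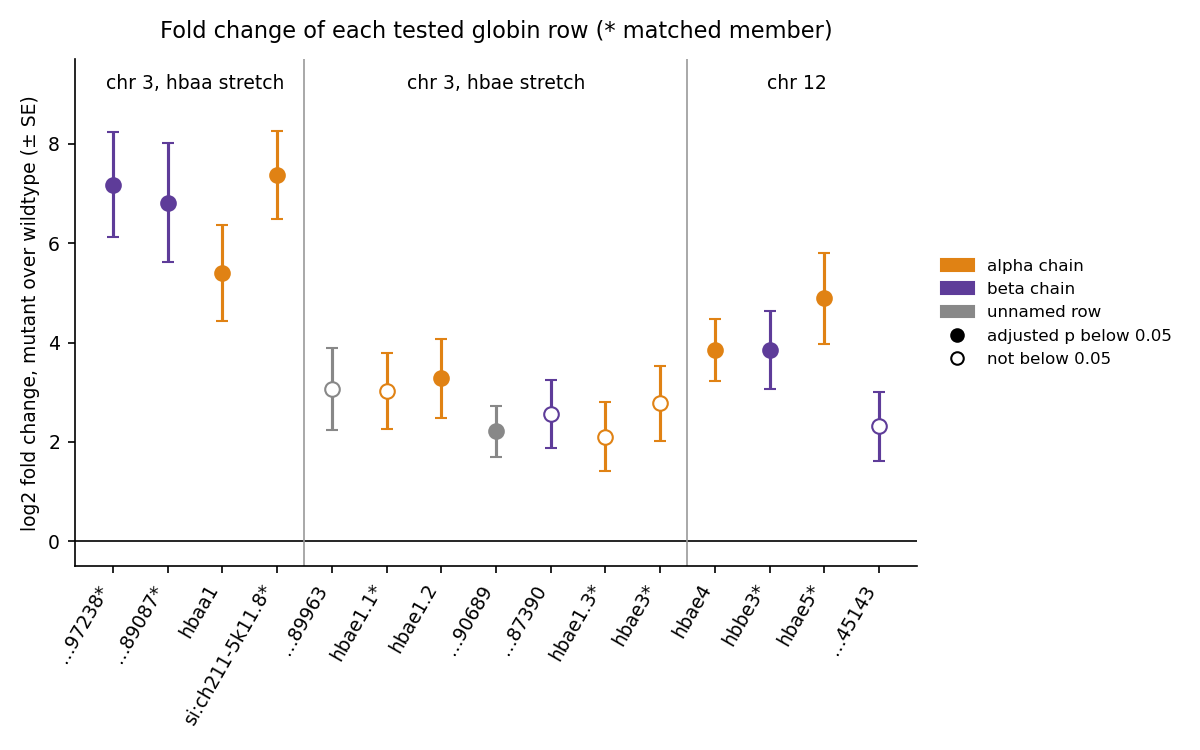
Log2 fold change, mutant over wildtype, with its standard error for the 15 tested globin rows in chromosomal order, coloured by chain; filled points have an edgeR adjusted p below 0.05, an asterisk marks a member and an identifier after … lacks its start, ENSDARG000000. The 4 points of the hbaa stretch lie between 5.39 and 7.36 and the 7 of the hbae stretch between 2.11 and 3.28.

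The main embryonic chains were the bulk of the globin transcripts. The beta-type gene hbbe3 held 4826, 13838 and 13690 CPM in mutant replicates 1 to 3, against 132, 799 and 1316 CPM in wildtype replicates 1 to 3. The lowest mutant library was thus well above the highest wildtype library, and replicate 1 was the lowest in both genotypes. The change was 14.4-fold, a log2 fold change of 3.85 ± 0.78 (SE; edgeR adjusted p = 0.0269), and the wildtype mean was 465 CPM without wildtype replicate 3, against 749 CPM with it. The call of hbbe3 ended without any one of mutant replicate 2, mutant replicate 3, wildtype replicate 2 and wildtype replicate 3 (adjusted p = 0.0502 to 0.128).

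Its embryonic alpha-type counterpart on chromosome 3, hbae3, held 2805, 9788 and 8128 CPM in the mutants, against 180, 1187 and 1662 CPM in the wildtypes. These levels do not overlap, with a log2 difference of 2.77 ± 0.75 (SE) that did not pass (edgeR adjusted p = 0.0664). For hbae1.3, also an embryonic alpha-type gene, the levels were 816, 3319 and 2407 CPM in mutants and 109, 633 and 775 CPM in wildtypes. Mutant replicate 1 lay close to wildtype replicate 3, and the log2 difference was 2.11 ± 0.70 (edgeR adjusted p = 0.116). The neighbouring copy hbae1.1 held 115, 527 and 319 CPM in mutants and 8.71, 35.9 and 73.8 CPM in wildtypes, where the mean was 22.3 CPM without wildtype replicate 3 and 39.5 CPM with it. Its log2 difference was 3.02 ± 0.76 (edgeR adjusted p = 0.0529). Without mutant replicate 1 these 3 genes passed, with edgeR adjusted p = 0.0284 for hbae3, 0.0433 for hbae1.3 and 0.0185 for hbae1.1.

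Of the other 4 rows of the hbae stretch, 2 rose, hbae1.2 and ENSDARG00000090689, with log2 fold changes of 3.28 and 2.21 (edgeR adjusted p = 0.0483 and 0.0401). The call of hbae1.2 was kept only without mutant replicate 1 or wildtype replicate 1, and that of ENSDARG00000090689 only without mutant replicate 1, when single libraries were left out. ENSDARG00000087390 and ENSDARG00000089963 were at 2.56 and 3.06 and did not pass (adjusted p = 0.0654 and 0.0651). The stretch as a whole had a median of 2.77 over 7 tested rows. With rows that share exon bases added together, hbae1.1, hbae1.2 and hbae1.3 gave a joint log2 difference of 2.53 that did not pass (edgeR adjusted p = 0.0792), and the group of ENSDARG00000087390 gave 2.74 (adjusted p = 0.052).

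On chromosome 12, hbae5 is an alpha-type gene beside hbbe3 and was far less abundant. It held 51.1, 130 and 155 CPM in mutants, against 0.581, 1.74 and 9.0 CPM in wildtypes. Wildtype replicate 3 carried 174 of the 213 wildtype counts, and the groups stood far apart. The rise was 29.5-fold, a log2 fold change of 4.89 ± 0.91 (SE; edgeR adjusted p = 0.0212), and the log2 fold change was 6.60 without wildtype replicate 3. The call of hbae5 ended when mutant replicate 2, wildtype replicate 2 or mutant replicate 3 was left out (edgeR adjusted p = 0.0649 to 0.115). Added to the counts of ENSDARG00000045143, which it overlaps on the opposite strand, hbae5 did not pass (log2 difference 2.63, edgeR adjusted p = 0.0617). ENSDARG00000045143 alone was at 2.31 (adjusted p = 0.0864). The fourth gene of the cluster, hbae4, rose with a log2 fold change of 3.85 (edgeR adjusted p = 0.0141), a call that ended without mutant replicate 3 or wildtype replicate 2 (0.053 and 0.0948). Thus 3 of the 4 rows on chromosome 12 rose, beside 3.34% of all genes, with a median of 3.85. The number was 0 without mutant replicate 3 or wildtype replicate 2 (0.522% and 0.256% of all genes). It was 1 without mutant replicate 2 and 2 without wildtype replicate 3 (0.735% and 1.1%). Without wildtype replicate 1 it was 3, and without mutant replicate 1 it was 4 (2.17% and 5.68%). DESeq2 called 4 (6.93%).

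The hbaa stretch, where the adult alpha genes lie, was almost silent in wildtypes. The alpha-type gene si:ch211-5k11.8 held 73, 459 and 646 counts in mutant replicates 1 to 3, against 1, 3 and 4 counts in wildtype replicates 1 to 3. In CPM these were 5.79, 29.7 and 41.2 in mutants and 0.0528, 0.186 and 0.207 in wildtypes. The pooled ratio was 183, with a 95% counting interval of 92.6 to 425 that covers counting error only. This member had the smallest adjusted p (log2 fold change 7.36 ± 0.89 SE, edgeR adjusted p = 0.00504), and it passed without any 1 library except wildtype replicate 2 (adjusted p = 0.0599). It had too few wildtype counts and entered the test through the mutants alone, so these p-values carry no weight of their own.

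The beta-type rows of this stretch were lower. ENSDARG00000097238 held 46, 107 and 377 counts in mutants, against 2, 0 and 2 counts in wildtypes, a ratio of 165 (95% counting interval 63.9 to 607; edgeR adjusted p = 0.0109). Mutant replicate 3 carried most of these counts, and without it the mutant mean was 5.28 CPM, against 11.5 CPM with it. The call of this row ended without mutant replicate 3 or wildtype replicate 2 (edgeR adjusted p = 0.0556 and 0.0742). The overlapping ENSDARG00000089087 held 47, 202 and 282 counts in mutants, against 0, 5 and 0 counts in wildtypes, a ratio of 132 (56.2 to 408; edgeR adjusted p = 0.0175). Its 5 wildtype counts lay in wildtype replicate 2, and leaving out any library but mutant replicate 1 or wildtype replicate 1 ended its call (edgeR adjusted p = 0.0544 to 0.0806). Summed, these overlapping rows had a log2 fold change of 7.04 (edgeR adjusted p = 0.00442). The sum, like each row, had too few wildtype counts and entered the test through the mutants alone, so it carries no weight of its own.

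The adult alpha gene hbaa1, which shares exon bases with si:ch211-5k11.8, held 66, 394 and 718 counts in mutants, against 2, 8 and 23 in wildtypes. It rose with a log2 fold change of 5.39 ± 0.97 (SE; edgeR adjusted p = 0.0185). Its mutant mean was 15.3 CPM without mutant replicate 3, against 25.5 CPM with it, and its wildtype mean was 0.301 CPM without wildtype replicate 3, against 0.597 CPM with it. The call of hbaa1 ended when mutant replicate 2, wildtype replicate 2 or mutant replicate 3 was left out (edgeR adjusted p = 0.0587 to 0.113). At the far end, hbaa2 held 30 counts over the mutants, against 3 over the wildtypes, and the ratio was 12.4 (95% counting interval 3.87 to 63.6). ENSDARG00000069734 held 42 counts over the mutants and 0 over the wildtypes, which is at least 17.4-fold higher when the floor is set at 3 counts over the group. These last 2 rows had too few counts to be tested. The 4 tested rows of the hbaa stretch had enough counts in every mutant library but in only 0 or 1 of the wildtype libraries. Their number of calls is therefore not read as a result. Its 6 rows summed had a log2 fold change of 6.27 (edgeR adjusted p = 0.00629). That sum is made of the same low-count rows and also lacked enough counts in some wildtype libraries, so it carries no weight of its own.

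The share of all counts taken by globins was compared next. The 15 named globin rows took 0.919%, 3.33% and 3.12% of counts in mutant replicates 1 to 3, against 0.0612%, 0.326% and 0.562% in wildtype replicates 1 to 3. No wildtype library reached a mutant one, and within each genotype replicate 1 was lowest. The mean share was 2.46% ± 1.34 in mutants and 0.316% ± 0.250 in wildtypes (SD, n = 3 each), a 7.77-fold difference, with p = 0.1 by a two-sided exact permutation test, which 3 libraries against 3 cannot go below. The fold was 12.7 without wildtype replicate 3 and 5.54 without wildtype replicate 1. For each of the 8 shares and ratios compared in this way the exact p was 0.1, and 0.1 after Benjamini-Hochberg adjustment over the 8, so none can pass the threshold. Hatching gland transcripts were highest in mutant replicate 1 and wildtype replicate 1, which were the lowest in globins, and without both the fold was 7.27.

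Both chains were higher in mutants. Alpha-type rows took 1.11% ± 0.639 of counts in mutants and 0.183% ± 0.142 in wildtypes, a 6.07-fold difference. For beta-type rows the shares were 1.35% ± 0.704 and 0.134% ± 0.109 in mutants and wildtypes, a 10.1-fold difference (SD, n = 3 each). Without wildtype replicate 3 the folds were 9.64 and 17.2.

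The balance between chains was read within each library, where depth and scaling cancel. The log2 ratio of alpha to beta counts was -0.47, -0.13 and -0.39 in mutant replicates 1 to 3, against 0.45, 0.57 and 0.38 in wildtype replicates 1 to 3. Over the named rows, beta counts exceeded alpha counts in 3 of 3 mutants, and alpha counts exceeded beta counts in 3 of 3 wildtypes. The means were -0.33 ± 0.18 in mutants and 0.47 ± 0.10 in wildtypes (SD, n = 3 each), a difference of -0.80 (two-sided exact permutation p = 0.1, the smallest possible). Over the 8 members alone the difference was -1.33. If the unnamed rows of the cluster are added to the beta sum, the ratio was below 0 in all 6 libraries, at -0.89, -0.63 and -0.86 in mutants and -0.45, -0.07 and -0.29 in wildtypes, with a difference of -0.52. The unnamed rows, whose chain is not known, held 0.177%, 0.722% and 0.685% of counts in mutant replicates 1 to 3. That exceeds the gap between the alpha-type shares (0.385%, 1.59% and 1.35%) and the beta-type shares (0.534%, 1.74% and 1.77%) there. Both lie on the plus strand, as does the HBE1 row ENSDARG00000087390, while hbae1.1, hbae1.2, hbae1.3 and hbae3 lie on the minus strand. On the same strand, ENSDARG00000089963 shares 210 exon bases with ENSDARG00000087390 and 126 with ENSDARG00000090689. Read as beta type by this placement, they put beta counts above alpha counts in all 6 libraries. Which chain was in excess thus depended on the chain of these rows, which no name gives.

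The clusters did not contribute alike. In each library most chromosome 12 counts lay on hbbe3, which was also the beta-type gene with most counts. The ratio between clusters and that between chains are thus not separate results. Chromosome 12 rows took 1.12% ± 0.587 of counts in mutants and 0.0884% ± 0.0732 in wildtypes, a 12.6-fold difference. The 11 named rows of chromosome 3 took 1.34% ± 0.759 and 0.228% ± 0.177 in mutants and wildtypes, a 5.88-fold difference (SD, n = 3 each). Without wildtype replicate 3 the folds were 21.8 and 9.43. The log2 ratio of chromosome 12 counts to those of the 11 named chromosome 3 rows was -0.13, -0.43 and -0.13 in mutants, against -1.47, -1.47 and -1.30 in wildtypes. The groups lie apart by 1.18 on the log2 scale (two-sided exact permutation p = 0.1, the smallest possible), and the gap between their nearest libraries exceeds the range within either. With the unnamed rows added, the 13 rows of chromosome 3 took 1.87% ± 1.06 in mutants and 0.308% ± 0.238 in wildtypes (SD, n = 3 each), a 6.06-fold difference. The ratio was then lower in every library, at -0.58, -0.89 and -0.63 in mutants and -2.06, -1.86 and -1.74 in wildtypes, with the same difference of 1.18. Within chromosome 3, the log2 ratio of the hbaa stretch to the 5 named rows of the hbae stretch was -8.23, -7.99 and -6.90 in mutants and -9.95, -11.31 and -11.21 in wildtypes, 3.12 higher in mutants, so the adult end was a small part of the cluster in both. Against all 7 rows of the hbae stretch the difference was 3.11.

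**Figure D4:**
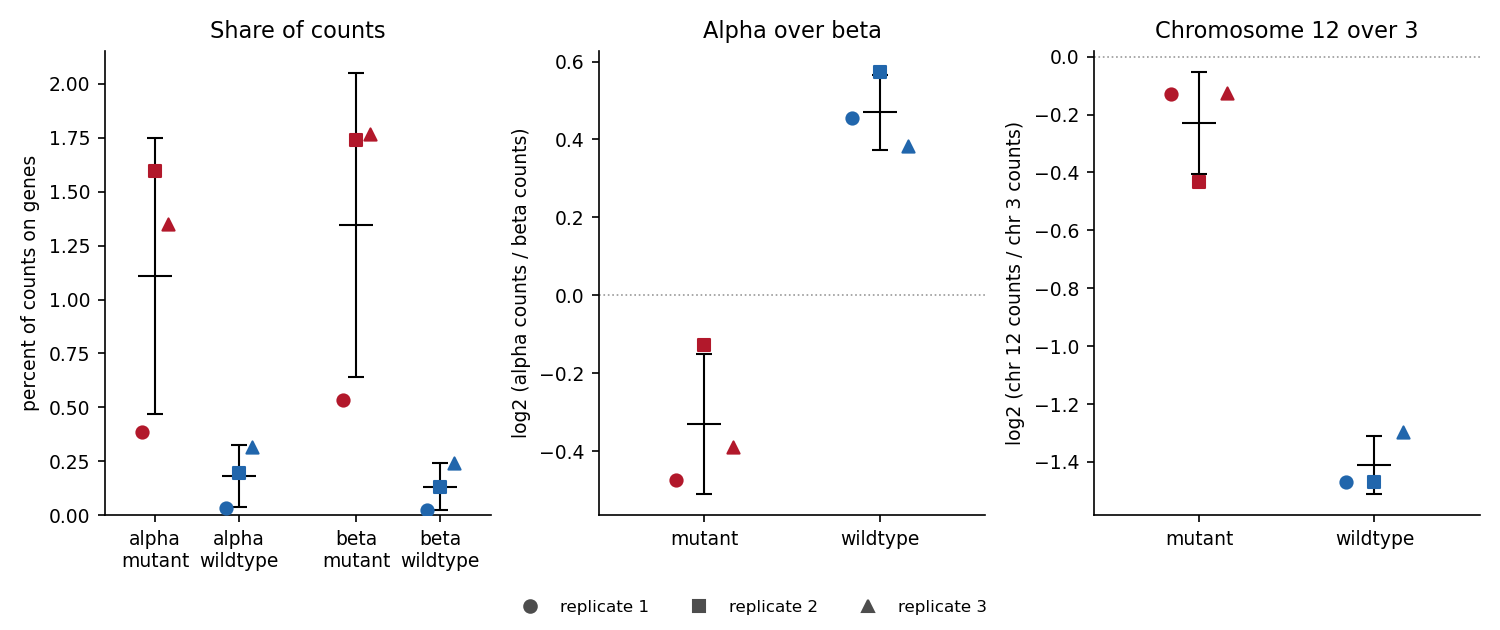
Left, percent of all counts on alpha-type and beta-type globin rows; middle and right, log2 ratio of alpha to beta counts and of chromosome 12 to chromosome 3 counts over the 15 named rows, each point a library (3 mutant in red, 3 wildtype in blue) with mean and SD in black. The alpha to beta ratio lies below 0 in the 3 mutants and above 0 in the 3 wildtypes, and the chromosome 12 to chromosome 3 ratio averages -0.23 in mutants and -1.41 in wildtypes.

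The make-up of the globin pool showed which genes carried these shifts. Of the counts on the 15 named rows, hbbe3 made up 45.4%, 40.4% and 45.03% in mutants, against 23.1%, 23.2% and 26.4% in wildtypes. The largest alpha gene, hbae3, made up 27.2% ± 1.17 in mutants and 33.2% ± 1.44 in wildtypes, and hbae1.3 made up 8.42% ± 1.1 and 17.7% ± 1.88 in mutants and wildtypes (SD, n = 3 each). Shares of a pool sum to the whole, so they are not independent of each other. The HBE1 gene ENSDARG00000087390 made up 10.6% in mutants and 15.1% in wildtypes, and hbae5 made up 0.457% and 0.111% in mutants and wildtypes.

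Ratios between single genes do not have that constraint. The log2 ratio of hbbe3 to hbae3, whose exons meet no other gene, was 0.78, 0.50 and 0.75 in mutants, against -0.45, -0.57 and -0.34 in wildtypes. Within chromosome 12, hbbe3 to ENSDARG00000045143 was 4.93 ± 0.15 in mutants and 3.25 ± 0.37 in wildtypes, whereas hbae4 to hbbe3 was -6.25 ± 0.05 and -5.97 ± 0.62 in mutants and wildtypes, with overlapping values (SD, n = 3 each). In these counts hbbe3 and ENSDARG00000045143, which shares exon bases with hbae5, thus differed between genotypes by unlike factors. These ratios between single genes were chosen after the levels were seen and carry no test.

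**Figure D5:**
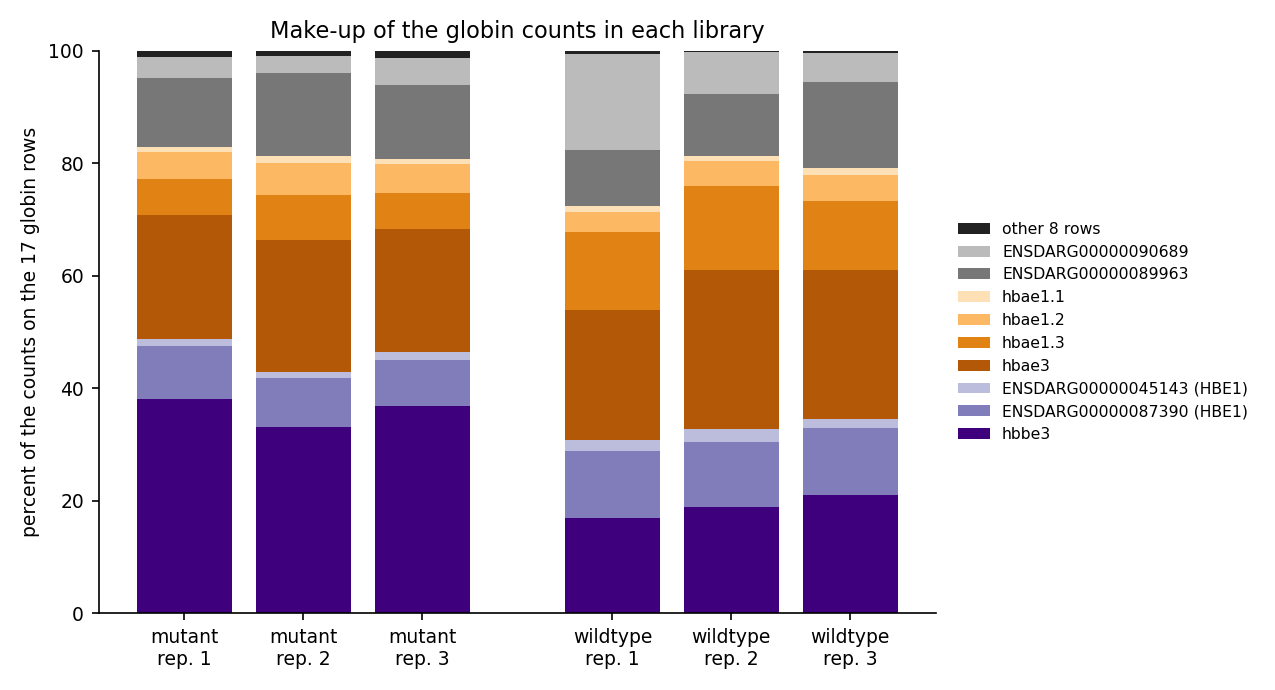
Percent of the counts on the 17 globin rows in each of the 3 mutant libraries (left) and 3 wildtype libraries (right), stacked by gene. The block of hbbe3 spans 33.2% to 38.0% of the pool in mutants and 16.9% to 21.0% in wildtypes, and ENSDARG00000090689 reaches 17.1% in wildtype replicate 1.

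Genes next to the clusters were compared with the globins. NPRL3, which lies 11.5 kb from the chromosome 3 cluster and in many vertebrates houses enhancers of the alpha globins in its introns, held 117, 297 and 293 CPM in mutants, against 4.96, 9.68 and 10.5 CPM in wildtypes. It rose 28.1-fold (log2 fold change 4.81 ± 0.48 SE, edgeR adjusted p = 0.00289) and passed without any 1 library (adjusted p = 0.000425 to 0.032). The DNA repair gene MPG, 47.7 kb away, was 10.8-fold higher, averaging 16.9 ± 7.62 CPM in mutants, against 1.56 ± 0.570 CPM in wildtypes (SD, n = 3 each; edgeR adjusted p = 0.0131). Its call ended when mutant replicate 2, wildtype replicate 2 or mutant replicate 3 was left out (adjusted p = 0.0552 to 0.0771). The water channel gene aqp8a.2, 1.6 kb from the chromosome 12 cluster, held 273 counts over the mutants, against 1 over the wildtypes (ratio 339, 95% counting interval 60.4 to 13452; edgeR adjusted p = 0.0112), and missed the threshold without mutant replicate 3 or wildtype replicate 2 (adjusted p = 0.0621 and 0.0781). AQP8, beside it, held 124 and 7 counts over mutants and wildtypes and was too low to be tested.

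The other neighbours within 100 kb did not pass. They were both genes named RHBDF1 (ENSDARG00000017367 with a log2 difference of 1.03 and ENSDARG00000036541 with 0.33), LCMT1 (-0.08), ARHGAP17 (-0.49), DOCK6 (-0.81) and KANK2 (-2.01, edgeR adjusted p = 0.122). Of the 9 neighbours tested, edgeR thus called 3 higher, beside 3.34% of all genes, and none lower, beside 1.99%. Among the 3, aqp8a.2 had almost no counts in wildtypes and entered the test through the mutants alone, so its call carries no weight of its own. DESeq2 also called KANK2 lower (log2 fold change -2.04, adjusted p = 0.0209), and limma voom called DOCK6 lower (-0.99, adjusted p = 0.0441).

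Genes of the pathway were read from lists of erythroid genes. Of 15 regulators tested, 5 rose and none fell in edgeR: klf1, gata1a, TAL1, GFI1B and NFE2. Over all genes tested, 3.34% were higher and 1.99% lower, and these shares stand beside each edgeR list count on all 6 libraries below. The factor gene klf1, which acts on beta-type globin promoters in mammals, averaged 210 ± 105 CPM in mutants, against 12.4 ± 9.65 CPM in wildtypes, and gata1a, the master erythroid factor gene, at 203 ± 120 and 15.1 ± 10.3 CPM in mutants and wildtypes (SD, n = 3 each; edgeR adjusted p = 0.0228 and 0.0263). TAL1 was 5.97-fold and GFI1B 4.0-fold higher (adjusted p = 0.0262 and 0.0256). NFE2, the fifth that passed, lies outside the naming rule and was chosen after its values were seen (log2 fold change 2.90, adjusted p = 0.0296). The genes known in mammals to hold embryonic or fetal globins down did not pass in edgeR on all 6 libraries. BCL11A was at -0.64, bcl11ab at -1.22, MYB at -0.74, SOX6 at 1.5 and zbtb7a at 0.15 (log2 differences, edgeR adjusted p = 0.0844 to 0.879, the smallest for SOX6). SOX6 averaged 117 CPM in mutants and 41.4 CPM in wildtypes. With DESeq2, limma voom and a replicate block 7 of the 15 regulators were higher, beside 6.93%, 7.8% and 4.9% of all genes. Without mutant replicate 1 edgeR also called 7, beside 5.68%.

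Of 19 genes that make or break down haem or move iron, 13 rose and none fell in edgeR, with a median log2 fold change of 2.90. DESeq2, limma voom and the fit with a replicate block each called 1 lower, beside 6.24%, 7.22% and 3.49% of all genes. Without mutant replicate 1 edgeR called 2 lower, beside 4.16% of all genes. CPOX, uros and ALAD, all enzymes on the path to haem, were 9.73-fold, 8.39-fold and 8.19-fold higher (edgeR adjusted p = 0.0167, 0.0177 and 0.0182). Of 9 genes of the red cell membrane and metabolism, 8 rose, with a median of 3.06, among them the skeleton genes DMTN and add2, 8.24-fold and 8.34-fold higher (adjusted p = 0.0109 and 0.0125), and blvrb and tspo, 10.7-fold and 7.99-fold higher (adjusted p = 0.00967 and 0.0105). As with the globins these counts rested on single libraries. When mutant replicate 2 was left out, 0 regulators, 0 haem genes and 4 membrane genes passed as higher, beside 0.735% of all genes. When mutant replicate 3 was, 0, 0 and 3 did, beside 0.522%. When wildtype replicate 2 was left out, 0 genes of the 3 lists passed in edgeR, beside 0.256% of all genes called higher. Leaving out wildtype replicate 3 kept 0 regulators, 3 haem genes and 4 membrane genes past the threshold, beside 1.1% of all genes. Leaving out wildtype replicate 1 kept 2, 9 and 8, beside 2.17%.

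Markers of other cells were read in the same libraries. Of 6 thrombocyte genes 3 rose, gp9, tubb1 and GP1BB, with gp9 9.54-fold higher (edgeR adjusted p = 0.0109). The thrombopoietin receptor gene mpl held 0.635, 4.85 and 1.53 CPM in mutants, against 8.5, 23.6 and 13.3 CPM in wildtypes, a log2 difference of -2.68 that did not pass (edgeR adjusted p = 0.0688), while DESeq2, limma voom and the fit with a replicate block each called it lower. None of the 6 was called higher without mutant replicate 3 or wildtype replicate 2 (0.522% and 0.256% of all genes). The number was 1 without mutant replicate 2 or wildtype replicate 3 (0.735% and 1.1%), and 2 without wildtype replicate 1 (2.17%). The list summed to 331 to 614 CPM in mutants and 136 to 350 CPM in wildtypes. Of 9 myeloid genes 1 fell, LCP1, which encodes a leukocyte actin-bundling protein (log2 fold change -1.34, edgeR adjusted p = 0.0372). By unadjusted p, 7 of the 9 were below 0.05. The number lower was 6 with DESeq2, 7 with limma voom and 4 with a replicate block, beside 6.24%, 7.22% and 3.49% of all genes. It was 2 without mutant replicate 1 (4.16% of all genes), 3 without wildtype replicate 1 (1.75%), and 0 without any other library. The myeloid list summed to 8810 to 12591 CPM in mutants and 15758 to 31238 CPM in wildtypes. None of 7 stem and progenitor genes passed in edgeR, with 3 at an unadjusted p below 0.05, while DESeq2 called 1 higher and 1 lower and so did limma voom, with sums of 205 to 312 CPM in mutants and 233 to 429 CPM in wildtypes. Of 7 endothelial genes stab2 rose and MRC1 fell in edgeR. Of 5 lens genes matched, 2 had enough counts to be tested, and both passed as higher. The lens gene lim2.3 held 89, 43 and 112 counts in mutants and 0, 0 and 2 in wildtypes. It entered the test through the mutants alone, so its call carries no weight of its own. The other lens gene was CRYBB1 (log2 fold change 3.55, edgeR adjusted p = 0.0346). Of 3 neuron genes matched, 2 were tested, and ELAVL3 fell. None of 3 muscle genes passed in edgeR, with 1 at an unadjusted p below 0.05, while DESeq2 called 0 and limma voom called 1 lower. None of 3 hatching gland genes passed either, with 0 at an unadjusted p below 0.05 and 0 called by DESeq2 or limma voom. The part of these markers in the globin differences was not tested.

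The 8 genes whose log2 CPM followed the summed globin level most closely over the 6 libraries, out of 9032 with a mean log2 CPM of at least 3, were SLC4A1, hemgn, cahz, PPOX, epb41b, hif1al2, ripor3 and alas2, with Pearson r of 0.997 to 0.999. The 6 points share their library and its scaling, and genotype separates them, so r is a description. SLC4A1, the anion exchanger of the red cell membrane, held 927, 2818 and 2827 CPM in mutants, against 35.8, 239 and 368 CPM in wildtypes. The first enzyme gene of erythroid haem synthesis, alas2, held 421, 1312 and 1285 CPM in mutants, against 15.1, 81.2 and 141 CPM in wildtypes. In both genes, as in hbbe3, replicate 1 was the lowest library of each genotype.

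Globins outside the clusters were scarce. The myoglobin gene mb, whose product binds oxygen in muscle, held 23, 50 and 63 counts in mutants, against 8, 10 and 0 in wildtypes. The cytoglobin gene CYGB held 6, 40 and 7 counts in mutants and 80, 62 and 43 in wildtypes. The neuroglobin gene NGB held 1 to 3 counts in mutants and 0 to 20 in wildtypes, xgb held 0 to 9 and 9 to 15 in mutants and wildtypes, cygb2 0 to 4 and 0 to 53, and ADGB 12 to 67 and 23 to 99. These counts are given without a test.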

How the data were processed

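Globin transcripts were measured by RNA-seq of polyadenylated RNA in 6 libraries of cd41-positive zebrafish cells, 3 per genotype, made with a low-input protocol per the labels. The count table the authors deposited holds unscaled whole-number counts for each gene. Per the file headers, the authors counted paired fragments with featureCounts 1.5.0-p1 on the Ensembl release 85 annotation of GRCz10, with no strand, overlap or multiple-mapping option set. STAR 2.4.2a, Cufflinks 2.2.1, Picard, Trim Galore and DESeq2 are named without roles, per the submitters' processing notes. Fragments that met several genes or copies were therefore not kept, which lowers the counts of overlapping globin models.

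Counts were fitted in R 4.3.3 with edgeR 4.0.16 (TMM factors, filterByExpr with a minimum count of 10, genotype as the only term, two-sided quasi-likelihood F test, Benjamini-Hochberg adjustment over 18722 genes, threshold 0.05). CPM used TMM-scaled library sizes. Shares and ratios were compared by two-sided exact permutation over libraries in Python 3.11.15 with scipy 1.17.1. Counting intervals are exact binomial at 95% and, like the floor of 3 counts over a group, cover counting error only. The alternatives used DESeq2 1.42.0, limma 3.58.1 (voom with sample weights), RLE factors, other filters, the replicate number as a block, left-out libraries and added rows. The fit was tested on simulated counts. Libraries of the table differed beyond counting noise in every pairing (chi-square over its degrees of freedom 19.9 or more), so each counts as a library of its own.

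The members, lists and tests were chosen with earlier results of these data known. Named were every member, other globins, neighbours within 100 kb, up to 4 genes per list with the smallest p, and the 8 genes most alike in level. 1 of the genes so named is not reported here. Symbols came from a table of Ensembl names, with synonyms from RefSeq GRCz12tu. Of 108 list entries 86 were matched, 13 were ambiguous and 9 had no match. No sequence is shown, since no genome or sequence table was used here.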

Additional observations from a re-analysis of the deposited data

How the results depend on the processing

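Every fitted globin difference kept its direction under every alternative run, and calls moved. With all 6 libraries, the globin members higher in mutants numbered 8 with DESeq2 and 8 with limma voom, against 5 in the reported fit, and the globin rows numbered 15 with both and 9 as reported. Without a filter 7 members and 14 globin rows were higher, beside 710 of 27514 genes (2.58%), and 507 genes were lower. Genes higher and lower over the whole table numbered 1297 and 1168 with DESeq2, and 1460 and 1352 with limma voom, against 625 and 373. Leaving out each library in turn gave 0 to 8 members, 0 to 16 globin rows, and 51 to 1135 genes higher and 11 to 832 lower, and 0 members and 0 rows were lower. The fold between genotypes ranged over these fits from 5.54 to 12.7 for all globins, 4.33 to 9.64 for alpha, 7.19 to 17.2 for beta, 4.198 to 9.43 for chromosome 3 and 8.97 to 21.8 for chromosome 12. The log2 difference ranged from -0.90 to -0.73 for alpha over beta, from 1.13 to 1.28 for chromosome 12 over chromosome 3 and from 2.71 to 3.55 for the hbaa stretch over the 5 named rows of the hbae stretch. The share of hbaa2 in the globin counts, -0.0073 percentage points in mutants minus wildtypes, was -0.0119 to 0.0020 with a library left out, and above 0 only without wildtype replicate 1, which held all 3 of its wildtype counts. Alternatives chosen after seeing the data were the sums of overlapping rows, the addition of the unnamed rows, unshared bases as the divisor, and the removal of mutant replicate 1 and wildtype replicate 1, the library of each genotype with most hatching gland transcripts. That removal gave 8 members and 17 globin rows higher, beside 1702 of 19006 genes (8.96%), and 1647 genes lower (8.67%). The 17 include hbaa2 and ENSDARG00000069734, with 0 counts in the wildtype libraries left. The members and rows counted in all these fits include the 3 members and 4 rows that entered the main test through the mutants alone. Their numbers of calls therefore carry no weight of their own. The cause of these shifts was not tested.

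The replicate numbers were checked as pairs. Deviations of libraries with the same number correlated at 0.224, 0.155 and 0.0875 across genes. Not every pair exceeded 0.1, and the reported fit kept genotype as its only term. Each library nonetheless correlated best with its own number, so these values do not settle whether the numbers pair the libraries. With the number as a replicate block, 8 members and 15 globin rows were higher, and 917 genes were higher (4.9%) and 653 lower (3.49%) in the whole table. Low counts limit the hbaa stretch, where wildtype libraries held 0 to 23 counts per row.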
